A study of Mus musculus with 4 samples.

Results

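NF-κB subunits and their feedback genes were followed in cholinergic immune cells of mouse inguinal subcutaneous white adipose tissue (IWAT) after an acute cold challenge. The set holds 10 genes taken by symbol from the 31053 genes of the count files: 3 NF-κB subunits (Nfkb1, Nfkb2 and Rel), 2 cytoplasmic inhibitors (Nfkbia and Nfkbie), 3 nuclear IκB proteins (Nfkbiz, Nfkbid and Bcl3), the deubiquitinase gene Tnfaip3 and the cytokine gene Tnf. In the cold, Tnf rose in macrophages, B cells, αβ T cells, γδ T cells and group 2 innate lymphoid cells (ILC2), by 1.59- to 2.56-fold. The response of Nfkbia, the main inhibitor, differed between cell types: it fell in macrophages and B cells and rose in Foxp3+ αβ T cells. Nfkbiz rose in macrophages, dendritic cells, αβ and γδ T cells, with a log2 fold change of 0.02 in B cells, and Nfkb1 fell in ILC2. Of these calls, Nfkbia in B cells and Nfkbiz in macrophages and dendritic cells held in every alternative fit. Tnf and Nfkb1 in ILC2 held in every alternative that gave a value, and stricter gates gave none there. Tnf also held in Foxp3+ and Foxp3- αβ T cells tested apart. Each of the other calls named so far was lost in some alternative fit. Rises of Nfkbid, Nfkbie, Nfkb2, Rel and Bcl3 in B cells, and of Nfkbid in Foxp3+ αβ T cells, held in every alternative fit as well.

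NF-κB is a family of dimeric transcription factors that is held in the cytoplasm of resting cells by IκB proteins. Signals from cytokine, antigen and pattern-recognition receptors activate the IκB kinase complex, IκB is degraded, and the freed dimers enter the nucleus and switch on cytokines, adhesion molecules and survival genes. Many of the genes that they switch on, among them Nfkbia and Tnfaip3, then act as brakes on the same pathway, and Tnf can start it again in neighbouring cells. Nuclear IκB proteins work differently from the cytoplasmic inhibitors: they bind NF-κB subunits on DNA and tune which targets are transcribed.

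Live ChAT-eGFP+ singlets were sorted from the digested stromal vascular fraction of male ChATBAC-eGFP mice and sequenced as 3′ single-cell libraries. All mice carried the BAC transgene, in which Chat sequences drive eGFP, were 5 weeks old when they entered the chamber and spent 3 weeks at 30 °C; they were then kept at 30 °C or moved to 4 °C (cold) for 4 h. Before the cold, the 4 °C mice alone spent a day at room temperature, so that step and the cold cannot be told apart. Each temperature had 2 libraries of 4 pooled mice each, and the libraries are called 30C replicates 1 and 2 and 4C replicates 1 and 2. Tissue was digested at 37 °C before sorting, in both groups alike. The sort itself can depend on temperature. The paper reports a larger share of ChAT-eGFP+ cells after cold, and more Chat in macrophages and B cells but not in T cells. In every gate, a change in which cells were sorted therefore cannot be told apart from a change within cells.

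After filtering, 21253 cells remained, 5191 to 5388 per library, with 53423899 to 54933486 unique molecular identifiers (UMIs, tags that mark a captured mRNA molecule) per library and a median of 7520 to 8068 UMIs per cell. Cell types were gated by marker genes, none of which is among the 10 genes, and 19084 cells (89.8%) fell in a gate. The gates held 953 macrophages (at least 4 of 7 markers such as C1qa, Csf1r and Adgre1), 274 dendritic cells (at least 3 of 5 markers, Fscn1, Ccl22, Cacnb3, Zbtb46 and Flt3), 8294 B cells, 873 germinal centre B cells, 270 plasma cells, 6995 αβ T cells, 455 γδ T cells, 755 ILC2, 124 stromal cells and 91 lymphatic endothelial cells. The αβ T cells were further split into 3357 cells with a Foxp3 UMI, the transcription factor of regulatory T cells, and 3638 without. The Foxp3- cells can hold regulatory T cells whose Foxp3 was not captured. Dendritic cells with fewer than 3 of the 5 dendritic markers fell outside that gate, so values for dendritic cells hold for the gated cells. Whether these markers favour cells with an active NF-κB pathway was not tested. Any pair of libraries shared 5 to 14 cell barcodes. Macrophages numbered 162, 182, 446 and 163 cells in 30C replicates 1 and 2 and 4C replicates 1 and 2, so that 4C replicate 1 carried most of the cold macrophages. The paper reports that macrophage subsets differed with temperature. It describes a cluster, predicted to be tissue resident, that came from thermoneutral mice only. Cells from the cold were spread more evenly over clusters predicted to be resident or bone marrow-derived. Sums over the macrophage gate cannot tell such a shift between subsets from a change within cells. All macrophage values below therefore hold for the gate as a whole. An alternative fit took only macrophages picked by the resident markers Mrc1 and Folr2, and Nfkbiz passed the threshold in it. Shifts among other subsets were not tested.

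All 10 genes were tested in every cell type except plasma and γδ T cells, where Bcl3 had too few UMIs, and stromal cells, where Nfkbia, Nfkbiz and Nfkb1 alone passed the filter on low counts. Lymphatic endothelial cells, with fewer than 20 cells in a library, were not tested. In the GENCODE annotation of GRCm38 the inhibitor genes lie at chr12:55489410-55492647 (Nfkbia) and chr17:45555703-45563169 (Nfkbie), and the nuclear IκB genes at chr16:55811375-55838899 (Nfkbiz), chr7:30421732-30428746 (Nfkbid) and chr7:19808462-19822770 (Bcl3). The subunit genes lie at chr3:135584655-135691547 (Nfkb1), chr19:46304320-46312385 (Nfkb2) and chr11:23736847-23770970 (Rel), and the remaining genes at chr10:19000910-19015657 (Tnfaip3) and chr17:35199381-35202007 (Tnf).

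Feedback in this pathway is built on κB sites, the short DNA stretches that NF-κB dimers bind. The 250 bases before each RefSeq transcription start of these genes were searched, on both strands, for the κB consensus. Promoter windows matched by symbol for 8 of the 10 genes (not Nfkb1 and Nfkbiz). A match was present for 6 genes (Nfkbia, Nfkbie, Nfkbid, Tnfaip3, Nfkb2 and Rel), in 8 of their windows out of 13 for the 8 genes, and 1281 of all 32851 mouse windows (3.90%) held 1. The windows of Bcl3 and Tnf held no match, which says only that these letters are not in that stretch. The windows of Nfkbia, Nfkbie and Rel are shown as examples. In B cells in the cold Nfkbia fell, while Nfkbie and Rel rose. Whether the match bears on these directions was not tested. Windows of Nfkb2 and Tnfaip3, not shown, held matches nearer the start, beginning 11 and 12 bases upstream. They are from RefSeq on GRCm38.p6, printed 5′ to 3′ on the strand of the gene, and capitals mark the match.
Nfkbia, chr12:55492648-55492897, minus strand: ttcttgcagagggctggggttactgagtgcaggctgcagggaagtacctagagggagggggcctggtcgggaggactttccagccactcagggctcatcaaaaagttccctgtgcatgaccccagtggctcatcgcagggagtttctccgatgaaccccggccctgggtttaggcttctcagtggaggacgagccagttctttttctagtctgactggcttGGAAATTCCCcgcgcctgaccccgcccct
Nfkbie, chr17:45555450-45555699, plus strand: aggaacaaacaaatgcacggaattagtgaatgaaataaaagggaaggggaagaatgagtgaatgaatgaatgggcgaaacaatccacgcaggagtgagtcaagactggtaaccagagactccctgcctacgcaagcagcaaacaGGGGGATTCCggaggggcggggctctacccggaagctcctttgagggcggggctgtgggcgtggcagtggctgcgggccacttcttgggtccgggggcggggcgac
Rel, chr11:23770970-23771219, minus strand: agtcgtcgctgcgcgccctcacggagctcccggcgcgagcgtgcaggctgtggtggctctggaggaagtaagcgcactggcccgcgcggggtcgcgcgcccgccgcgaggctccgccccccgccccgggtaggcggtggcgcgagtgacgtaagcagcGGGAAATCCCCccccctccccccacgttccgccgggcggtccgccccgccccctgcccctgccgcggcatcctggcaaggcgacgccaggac
Counted from the start, the match began 29 bases upstream in Nfkbia, 106 in Nfkbie and 92 in Rel.

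Levels are given as a gene's UMIs per 1000000 UMIs of the cell type in that library (CPM), always in the order 30C replicate 1, 30C replicate 2, 4C replicate 1 and 4C replicate 2. They are compared for 1 gene between cell types, not between genes. Fewer cells that express a gene and fewer transcripts per cell cannot be told apart in such sums. The members differed widely in which cell type held most of their mRNA, as the plot of levels by cell type shows. Between cell types, the summed counts of the 4 libraries were compared with library as a term, over 7 pairs of cell types. Since most genes differ between such cells, the background is high: 71.9% of all genes tested differed between macrophages and B cells, 72.7% between macrophages and αβ T cells and 74.7% between B and αβ T cells, against 8, 7 and 10 of the 10 members. Of all genes, 35.4% differed between Foxp3+ and Foxp3- αβ T cells, 32% between ILC2 and αβ T cells, 27.8% between γδ and αβ T cells and 58.4% between dendritic cells and macrophages. The members called in these pairs were 5, 9, 5 and 9 of 10.

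**Figure D1:**
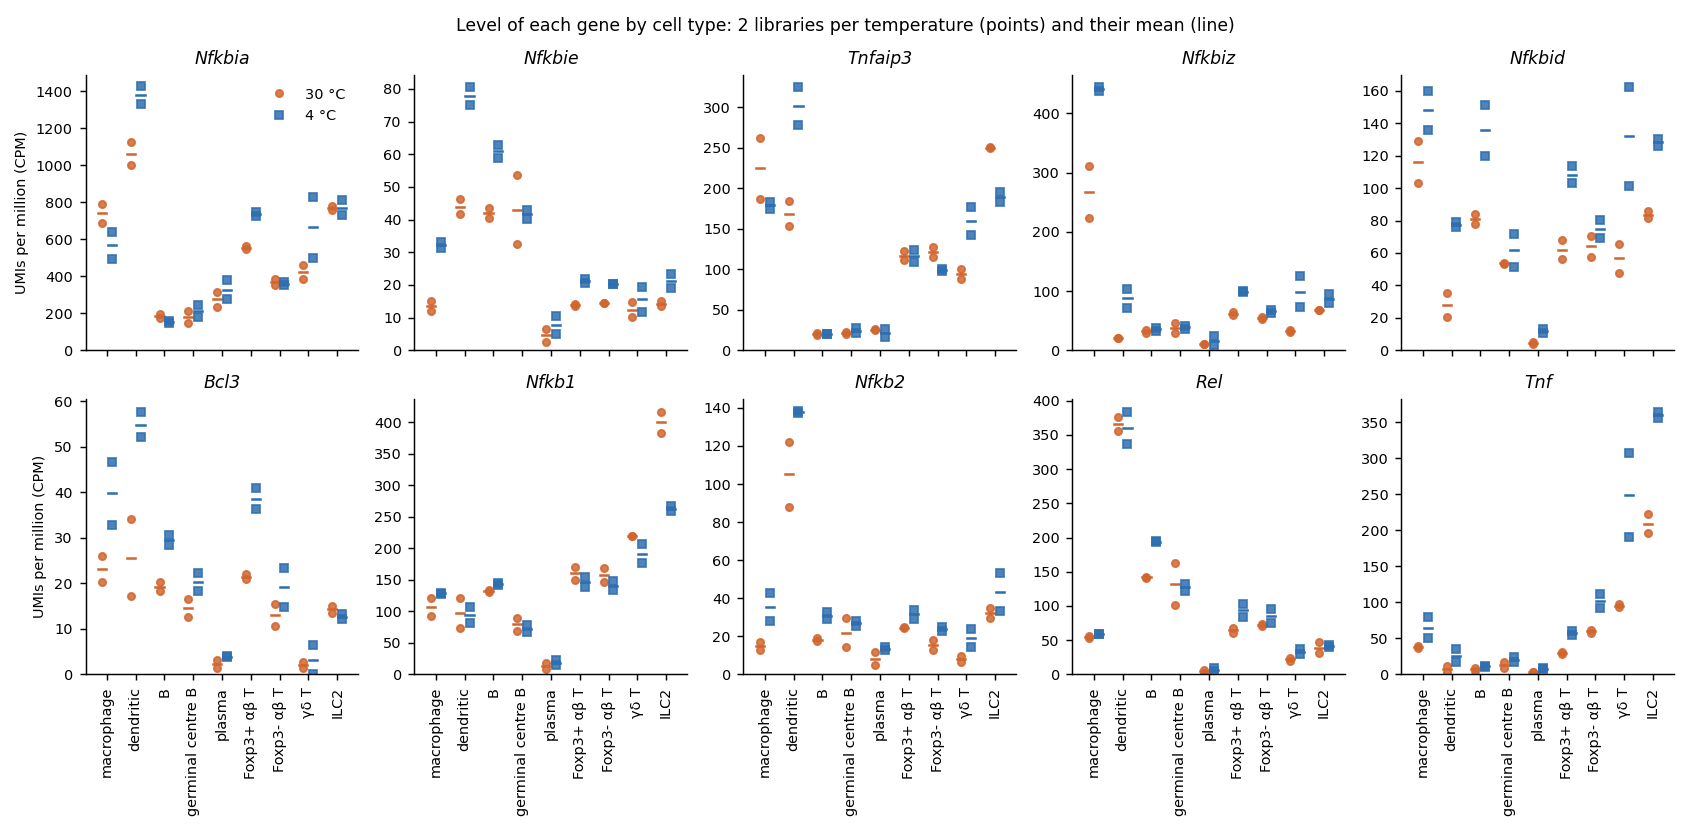
Level of each of the 10 genes (y axis, CPM) by cell type (x axis). Each point is 1 library, circles at 30 °C and squares at 4 °C, and the line is the mean of 2 libraries; Nfkbiz stands highest in macrophages, Rel and Nfkb2 in dendritic cells, and Tnf and Nfkb1 in ILC2.

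Among the subunits, Rel, which encodes the c-Rel subunit of lymphocytes and dendritic cells, had its highest level in dendritic cells, 337 to 384 CPM over the 4 libraries, against 141 to 195 in B cells and 53.2 to 59.1 in macrophages. These ranges did not overlap. On the log2 scale the level of Rel was higher in dendritic cells than in macrophages by 3.14 ± 0.13 (SE, adjusted p = 1.08e-08) and higher in B cells than in αβ T cells by 1.52 ± 0.05 (SE, adjusted p = 9.2e-09). Nfkb2, which encodes the precursor of the non-canonical subunit, also had its highest mean in dendritic cells, at 88.2 to 138 CPM, where lymphatic endothelial cells, at 36.2 to 119.9, overlapped them. Macrophages held 12.7 to 42.8 CPM of Nfkb2, and dendritic cells stood above them by 2.78 ± 0.22 (SE, adjusted p = 1.23e-06) on the log2 scale. Nfkb1, the gene of the canonical DNA-binding subunit, was instead highest in ILC2, at 259 to 417 CPM, and next in γδ T cells at 177 to 220.1. Below them, Foxp3+ (138 to 170) and Foxp3- αβ T cells (134 to 169), B cells (131 to 145) and lymphatic endothelial cells (110 to 167) overlapped. The TMM-scaled test called Nfkb1 higher in B than in αβ T cells, the reverse of the order of their CPM means. Its level in ILC2 was above that in αβ T cells by 1.22 ± 0.09 (SE, adjusted p = 5.62e-07) on the log2 scale.

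Of the inhibitors, Nfkbia was most abundant in dendritic cells, at 1003 to 1427 CPM, and lowest in B cells, at 147 to 196, where it overlapped germinal centre B cells. ILC2, lymphatic endothelial cells, macrophages, Foxp3+ αβ T cells and γδ T cells lay between, with overlapping ranges. Foxp3+ cells held more Nfkbia than Foxp3- cells by 0.79 ± 0.07 (SE, adjusted p = 1.62e-06) on the log2 scale. Nfkbie, the gene of the ε isoform of IκB, ran the other way between B and T cells: B cells held 40.5 to 62.99 CPM, Foxp3+ αβ T cells 13.7 to 21.9, and the log2 difference between B and all αβ T cells was 1.98 ± 0.05 (SE, adjusted p = 1.5e-09). Tnfaip3, which encodes a ubiquitin-editing enzyme that turns off signalling upstream of the kinase complex, had 19.3 to 21.3 CPM in B cells and 175 to 263 in macrophages, a log2 difference of 2.82 ± 0.10 (SE, adjusted p = 1.41e-07) in favour of macrophages. Dendritic cells, ILC2 and macrophages overlapped at the top of its order.

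The nuclear IκB genes split by cell type. Nfkbiz, whose product is needed for a set of secondary response genes in myeloid cells, stood at 224 to 444 CPM in macrophages and at 20.2 to 104 in dendritic cells. The macrophage range lay above that of every other gated type, and the log2 difference to B cells was 2.85 ± 0.16 (SE, adjusted p = 1.51e-06). Nfkbid overlapped between macrophages (103 to 160.0 CPM), B cells (78.01 to 151) and ILC2 (81.3 to 131) and was low in plasma cells (3.71 to 12.8). Bcl3, a nuclear IκB that binds the DNA-binding subunits, was nearly absent from γδ T cells, at 0 to 6.48 CPM, with a log2 difference of -2.81 ± 0.33 (SE, adjusted p = 4.99e-05) from αβ T cells. Within the αβ T cells it was higher in Foxp3+ cells by 0.89 ± 0.11 (SE, adjusted p = 2.59e-05).

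Tnf, the ligand, was highest in ILC2 (196 to 365 CPM), whose range overlapped that of γδ T cells (93.5 to 307). Foxp3- αβ T cells came next (58.2 to 112), and macrophages (36.6 to 80.4) overlapped Foxp3+ αβ T cells (28.9 to 59.9). ILC2 held more Tnf than αβ T cells by 2.31 ± 0.08 (SE, adjusted p = 9.12e-10), and B cells held less than αβ T cells, with a log2 difference of -2.34 ± 0.09 (SE, adjusted p = 1.5e-08). At the other end, stromal cells held a single Tnf UMI in 4C replicate 2 and none in the other libraries.

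Within each cell type the cold effect is the log2 fold change of 4C over 30C libraries, with its standard error (SE) and the edgeR p-value adjusted over all genes of that cell type. Where an alternative to the main fit ended a call or moved a value by over 1.5 times, it is named beside that value. Of these, stricter gates asked for 1 more marker of the type and at most 1 of any other type, the open gene limit kept cells of over 5000 genes, thinning brought each cell to 3000 UMIs, and cycling cells were those with at least 3 of 4 proliferation markers. In macrophages 4 members rose and 1 fell, with a median log2 fold change of 0.49 over the members, against 8.66% of all genes rising, 8.09% falling and a median of 0.00. Dendritic cells had 3 members rising against 1.37% of genes (median of the members 0.81). In B cells 6 rose and 1 fell, against 7.35% and 7.58% of genes (median 0.40). In αβ T cells 4 rose and 0 fell, against 1.99% and 2.61% (median 0.39). Split by Foxp3, 7 rose in Foxp3+ cells against 2.39% (median 0.51). In Foxp3- cells 1 rose and 1 fell, against 0.979% and 2.03% (median 0.19). Of 9 members tested in γδ T cells 4 rose, against 1.51% (median 0.72). In ILC2 2 rose and 2 fell, against 2.42% and 3.46% (median 0.15).

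No member passed the edgeR threshold in germinal centre B cells (1 at an unadjusted p under 0.05), plasma cells (2 of 9) or stromal cells (0 of 3), where 0.527%, 1.08% and 0.396% of all genes did so in either direction. Of other tools, DESeq2 also called 0 members in these 3 cell types. It gave no adjusted p for Nfkbid, Rel, Tnf and Nfkbie in plasma cells or for Bcl3 and Tnf in germinal centre B cells, so it could not call them. In germinal centre B cells Nfkbia, Tnf and Nfkb2 had log2 fold changes of 0.17, 0.73 and 0.41. These were 0.44, 1.06 and 0.80 without 30C replicate 1 and -0.12, 0.08 and -0.26 without 30C replicate 2. Germinal centre B cells of the 2 temperatures overlapped for every member but Bcl3. In plasma cells Nfkbid stood at 4.89, 3.71, 10.7 and 12.8 CPM, both cold libraries above both at 30 °C, with a log2 fold change of 1.30 ± 0.33 (SE, adjusted p = 0.163). With no filter on low counts this was 1.26 (edgeR adjusted p = 0.044). Stromal cells had a median of 4202 and 3760 UMIs per cell at 30 °C and 11463 and 11955 at 4 °C, and the part of this depth gap in their values was not tested.

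**Figure D2:**
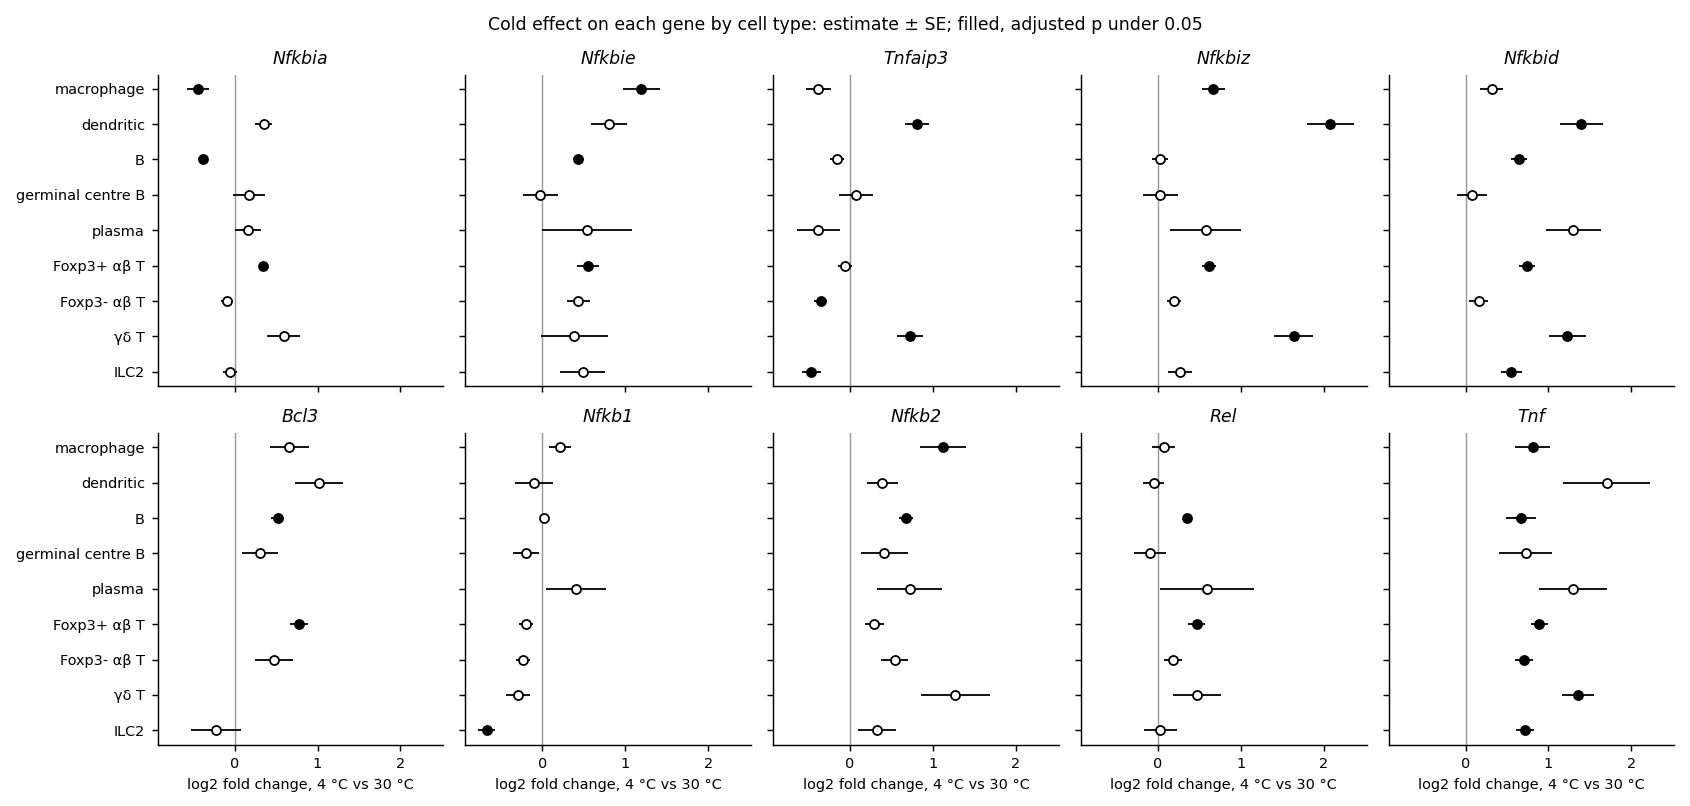
Cold effect on each gene (x axis, log2 fold change of 4 °C over 30 °C with its SE as the bar) in 9 gated cell types (y axis). Filled points passed the adjusted p of 0.05; Tnf lies to the right of 0 in every type shown, while Nfkbia is filled to the left in macrophages and B cells and to the right in Foxp3+ αβ T cells.

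Tnf rose in more cell types than any other member. In macrophages its levels were 39.2, 36.6, 80.4 and 49.9 CPM. Both cold libraries were above both 30 °C libraries, with a log2 fold change of 0.81 ± 0.21 (SE, adjusted p = 0.027). Most of this came from 4C replicate 1, without which the value was 0.36 (adjusted p = 0.339), and it was 0.75 (adjusted p = 0.143) with DESeq2 and 1.22 (adjusted p = 0.00386) under stricter gates. In B cells Tnf stood at 5.14, 8.62, 12.3 and 10.9 CPM, low throughout, and rose by 0.67 ± 0.18 (SE, adjusted p = 0.0333). There the call rested on 30C replicate 1, without which it was 0.33 (adjusted p = 0.23), and DESeq2 gave 0.66 (adjusted p = 0.0739).

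The T cells and ILC2 held more Tnf than B cells. In αβ T cells the levels were 42.2, 46.98, 87.4 and 74.9 CPM, in Foxp3+ cells 28.9, 30.6, 59.9 and 54.96 and in Foxp3- cells 58.2, 61.98, 112 and 91.9. None of these groups overlapped between temperatures, and the log2 fold changes were 0.80 ± 0.10 (SE, adjusted p = 0.00558), 0.89 ± 0.10 (SE, adjusted p = 0.000886) and 0.70 ± 0.11 (SE, adjusted p = 0.00614). Without 30C replicate 1 the value in αβ T cells was 0.73 (adjusted p = 0.0942). γδ T cells held 97.4, 93.5, 307 and 192 CPM. The cold libraries were higher, with a log2 fold change of 1.36 ± 0.19 (SE, adjusted p = 0.00578), and 4C replicate 1 stood far above 4C replicate 2. Leaving out 4C replicate 1 gave 0.93 (adjusted p = 0.0841), and leaving out 30C replicate 2 gave 1.31 (adjusted p = 0.12). With the open gene limit it was 0.81 (adjusted p = 0.556). ILC2, the cells with most Tnf, held 223, 196, 357 and 365 CPM. Stricter gates gave no value for ILC2, whose gate asked for 2 of 6 markers. Their cold libraries stood close together and above both 30 °C libraries, and the rise of 0.72 ± 0.11 (SE, adjusted p = 0.000163) held whichever library was left out. Dendritic cells held little Tnf, 3.44 to 35.5 CPM, with a log2 fold change of 1.70 ± 0.52 (SE, adjusted p = 0.126) that did not pass the threshold. With no filter on low counts it was 1.72 (edgeR adjusted p = 0.00784). The dendritic value was 1.10 without 4C replicate 1 and 2.87 without 30C replicate 1. No pair of cell types among the 7 compared showed a Tnf response that differed past the threshold.

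Of the cytoplasmic inhibitors, Nfkbia moved in opposite directions. Macrophages held 689, 793, 493 and 639.6 CPM. Both cold libraries were the lower ones, and the log2 fold change was -0.44 ± 0.13 (SE, adjusted p = 0.0399). It is close to the threshold: without 4C replicate 1 it was -0.25 (adjusted p = 0.207) and without 30C replicate 2 -0.33 (adjusted p = 0.0909). With library totals in place of TMM scaling it was -0.40 (adjusted p = 0.0503), under stricter gates -0.37 (adjusted p = 0.139) and in macrophages with at most 1 B cell and 1 T cell marker -0.43 (adjusted p = 0.0683). B cells held 196, 177, 159 and 147 CPM and fell with little spread between libraries. Their log2 fold change was -0.38 ± 0.06 (SE, adjusted p = 0.00155), and it passed the threshold in every alternative tried. With library totals, which leave 78.0% rather than 49.3% of the called B cell genes on the higher side, Nfkbia was -0.29 (adjusted p = 0.00611).

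Among αβ T cells the Foxp3+ and Foxp3- cells differed. In Foxp3+ αβ T cells Nfkbia stood at 546, 563, 724 and 747 CPM, a rise of 0.34 ± 0.05 (SE, adjusted p = 0.00436). Without 30C replicate 1 or 2 this was 0.32 (adjusted p = 0.143) and 0.36 (adjusted p = 0.0736), and without cycling cells 0.22 (adjusted p = 0.012). Foxp3- cells held 355, 383, 368 and 353 CPM, overlapping between temperatures, with -0.09 ± 0.07 (SE, adjusted p = 0.532). In dendritic cells the levels were 1124, 1003, 1427 and 1331 CPM and the log2 fold change 0.35 ± 0.10 (SE, adjusted p = 0.105), in ILC2 756, 778, 732 and 811 CPM and -0.06 ± 0.08 (SE, adjusted p = 0.78).

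These differences in the Nfkbia response were tested directly, as the difference between the log2 fold changes of a pair of cell types. Of all genes, 7.5% responded differently between macrophages and B cells, 7.6% between macrophages and αβ T cells, 2.97% between B and αβ T cells and 0.79% between Foxp3+ and Foxp3- αβ T cells. The shares were 2.45% for ILC2 and αβ T cells, 1.16% for γδ and αβ T cells and 2.65% for dendritic cells and macrophages. Of the 10 members 1, 2, 1, 2, 1, 2 and 3 did so, in the same order of pairs. For Nfkbia the difference from αβ T cells was -0.57 ± 0.12 (SE, adjusted p = 0.00228) in macrophages and -0.53 ± 0.07 (SE, adjusted p = 0.00107) in B cells. The macrophage difference was -0.37 (adjusted p = 0.102) without 4C replicate 1 and -0.46 (adjusted p = 0.119) without 30C replicate 2, while that of B cells passed the threshold in every alternative. Macrophages and B cells themselves differed by -0.05 ± 0.14 (SE, adjusted p = 0.925). The log2 fold change of Nfkbia was higher in Foxp3+ than in Foxp3- cells by 0.44 ± 0.06 (SE, adjusted p = 0.000845), which became 0.27 (adjusted p = 0.19) under stricter gates. That of dendritic cells, which did not pass the threshold on its own, lay above that of macrophages by 0.79 ± 0.18 (SE, adjusted p = 0.0136), or 0.57 (adjusted p = 0.067) without 4C replicate 1, 0.60 (adjusted p = 0.138) without 30C replicate 2 and 0.67 (adjusted p = 0.13) under stricter gates.

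**Figure D3:**
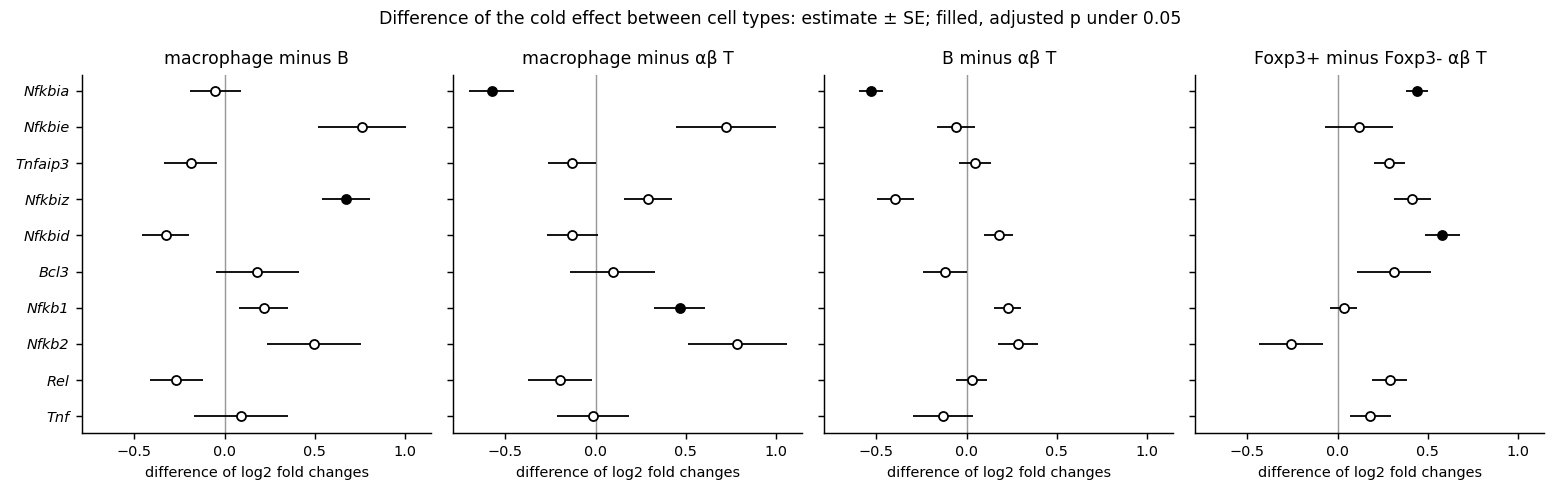
Difference of the cold effect between 2 cell types (x axis, the log2 fold change of the type named before "minus" less that of the type after it, with its SE as the bar) for each gene (y axis), in 4 of the 7 pairs. Filled points passed the adjusted p of 0.05: Nfkbiz in macrophages against B cells, Nfkbia and Nfkb1 in macrophages against αβ T cells, Nfkbia in B against αβ T cells, and Nfkbia and Nfkbid in Foxp3+ against Foxp3- αβ T cells.

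Nfkbie, the other cytoplasmic inhibitor, rose where Nfkbia fell. Macrophages held 11.9, 14.97, 31.2 and 33.1 CPM and B cells 43.6, 40.5, 62.99 and 58.8. In each type the cold libraries were the higher pair, with log2 fold changes of 1.19 ± 0.22 (SE, adjusted p = 0.00444) and 0.44 ± 0.06 (SE, adjusted p = 0.000918). The macrophage value was 0.53 (adjusted p = 0.435) with thinned cells and 1.20 (adjusted p = 0.0601) with DESeq2. In αβ T cells Nfkbie stood at 14.2, 14.02, 21.1 and 20.4 CPM, a log2 fold change of 0.49 ± 0.10 (SE, adjusted p = 0.0337) that fell short of the threshold when any 1 library was left out. Its values were 0.50 (adjusted p = 0.225) and 0.48 (adjusted p = 0.187) without 30C replicates 1 and 2, and 0.45 (adjusted p = 0.097) and 0.53 (adjusted p = 0.0663) without 4C replicates 1 and 2. DESeq2 gave 0.49 (adjusted p = 0.161), no filter on low counts 0.51 (adjusted p = 0.0717), stricter gates 0.46 (adjusted p = 0.0912), the open gene limit 0.36 (adjusted p = 0.0513) and thinning 0.41 (adjusted p = 0.203). Foxp3+ cells alone held 14.1, 13.7, 21.9 and 20.7 CPM, with a rise of 0.55 ± 0.14 (SE, adjusted p = 0.0411) that was 0.58 (adjusted p = 0.181), 0.53 (adjusted p = 0.174) and 0.50 (adjusted p = 0.0814) without 30C replicate 1, 30C replicate 2 and 4C replicate 1. It also missed the threshold with DESeq2 at 0.55 (adjusted p = 0.25), under stricter gates at 0.58 (adjusted p = 0.0994), with the open gene limit at 0.41 (adjusted p = 0.109), with thinning at 0.60 (adjusted p = 0.13) and without cycling cells at 0.52 (adjusted p = 0.0629).

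Tnfaip3 went up in dendritic and γδ T cells and down in ILC2 and Foxp3- αβ T cells. Dendritic cells held 184, 153, 325 and 278 CPM, with both cold libraries high and a log2 fold change of 0.81 ± 0.15 (SE, adjusted p = 0.0108), or 0.83 (adjusted p = 0.133) with thinned cells. γδ T cells held 100.1, 88.05, 177 and 142 CPM and rose by 0.72 ± 0.16 (SE, adjusted p = 0.031), but without cycling cells the value was 0.31 (adjusted p = 0.433). Leaving out 30C replicate 1, 30C replicate 2 or 4C replicate 1 gave 0.79 (adjusted p = 0.135), 0.61 (adjusted p = 0.418) and 0.52 (adjusted p = 0.346). DESeq2 gave 0.71 (adjusted p = 0.103), the open gene limit 0.22 (adjusted p = 0.849) and thinning 0.43 (adjusted p = 0.415). ILC2 held 251, 249.6, 184 and 195 CPM. Their cold libraries were the lower pair, and the log2 fold change was -0.47 ± 0.11 (SE, adjusted p = 0.0134). It was -0.43 (adjusted p = 0.126) without 4C replicate 1, -0.46 (adjusted p = 0.0547) without 30C replicate 2 and -0.46 (adjusted p = 0.0611) with DESeq2. In Foxp3- αβ T cells the levels were 115, 127, 97.5 and 101 CPM and the log2 fold change -0.35 ± 0.08 (SE, adjusted p = 0.0371), which became -0.28 (adjusted p = 0.238) without 30C replicate 2, -0.35 (adjusted p = 0.077) without 4C replicate 1 and -0.36 (adjusted p = 0.0837) without 4C replicate 2. It was -0.22 (adjusted p = 0.295) under stricter gates, -0.35 (adjusted p = 0.151) with DESeq2, -0.29 (adjusted p = 0.088) with library totals and -0.34 (adjusted p = 0.0518) without the doublets that Scrublet marked. The response was larger in dendritic cells than in macrophages by 1.15 ± 0.23 (SE, adjusted p = 0.00521), or 0.79 (adjusted p = 0.0886) without 30C replicate 2. It was larger in γδ than in αβ T cells by 0.91 ± 0.21 (SE, adjusted p = 0.0303), or 0.76 (adjusted p = 0.286) without 30C replicate 2 and 0.61 (adjusted p = 0.402) without 4C replicate 1.

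Of the nuclear IκB genes, Nfkbiz had the widest span of responses. Dendritic cells held 20.2, 20.6, 104 and 70.6 CPM, which is 16 and 12 UMIs at 30 °C and 132 and 76 at 4 °C. All cold values were far above those at 30 °C, and the log2 fold change was 2.08 ± 0.28 (SE, adjusted p = 0.00113), or 4.22-fold. γδ T cells held 33.7, 30.9, 125 and 72.6 CPM and rose by 1.64 ± 0.24 (SE, adjusted p = 0.00647). Without 4C replicate 1 this was 1.09 (adjusted p = 0.151) and without 30C replicate 2 1.55 (adjusted p = 0.128), and with the open gene limit 1.28 (adjusted p = 0.313).

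Macrophages, with the highest level of Nfkbiz, held 224, 311, 437 and 444 CPM. The cold libraries agreed closely and lay above both 30 °C libraries, and the rise of 0.67 ± 0.14 (SE, adjusted p = 0.00731) passed the threshold in every alternative. Foxp3+ αβ T cells held 58.95, 65.00, 99.6 and 98.3 CPM and rose by 0.61 ± 0.08 (SE, adjusted p = 0.00227), or 0.55 (adjusted p = 0.0624) without 30C replicate 1. In Foxp3- αβ T cells the log2 fold change was 0.20 ± 0.09 (SE, adjusted p = 0.253), which did not pass the threshold. B cells held 29.8, 34.4, 38.1 and 31.97 CPM, overlapping between temperatures, with 0.02 ± 0.09 (SE, adjusted p = 0.906). The log2 fold change was higher in macrophages than in B cells by 0.67 ± 0.13 (SE, adjusted p = 0.00131), a difference that passed the threshold in every alternative. It rose more in dendritic cells than in macrophages by 1.36 ± 0.32 (SE, adjusted p = 0.0198), or 1.06 (adjusted p = 0.123) without 4C replicate 1, 1.15 (adjusted p = 0.119) without 30C replicate 2 and 1.70 (adjusted p = 0.0644) under stricter gates. It rose more in γδ than in αβ T cells by 1.20 ± 0.24 (SE, adjusted p = 0.0108), which was 0.60 (adjusted p = 0.641) without 4C replicate 1 and 1.08 (adjusted p = 0.0838) without 30C replicate 2. αβ T cells as a whole held 56.5, 60.4, 80.5 and 82.2 CPM and rose by 0.41 ± 0.07 (SE, adjusted p = 0.0166), or 0.37 (adjusted p = 0.217) without 30C replicate 1 and 0.46 (adjusted p = 0.103) without 30C replicate 2.

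Nfkbid, whose product restrains or permits cytokine genes such as Il2 and Il6 depending on the cell, rose in B cells, dendritic cells, ILC2, γδ T cells and Foxp3+ αβ T cells. B cells held 78.01, 83.99, 151 and 119.9 CPM, with no overlap, a log2 fold change of 0.64 ± 0.09 (SE, adjusted p = 0.000858). Foxp3+ αβ T cells held 56.4, 67.8, 113 and 103 CPM and rose by 0.74 ± 0.10 (SE, adjusted p = 0.00226), whereas Foxp3- cells held 57.6, 70.7, 80.1 and 69.3 CPM, which overlapped between temperatures. The response was larger in Foxp3+ cells by 0.58 ± 0.10 (SE, adjusted p = 0.00477), or 0.60 (adjusted p = 0.0705) without 30C replicate 1, 0.56 (adjusted p = 0.131) without 30C replicate 2 and 0.49 (adjusted p = 0.126) under stricter gates. In dendritic cells the levels were 35.3, 20.6, 75.8 and 78.96 CPM and in ILC2 81.3, 86.04, 126 and 131, with log2 fold changes of 1.39 ± 0.26 (SE, adjusted p = 0.0115) and 0.55 ± 0.13 (SE, adjusted p = 0.0101). Thinned, the dendritic value was 2.23 (adjusted p = 0.0825). The ILC2 value was 0.50 (adjusted p = 0.12) without 30C replicate 1, 0.55 (adjusted p = 0.125) with DESeq2 and 0.38 (adjusted p = 0.244) with the open gene limit. γδ T cells held 65.5, 47.9, 162 and 102 CPM and rose by 1.22 ± 0.22 (SE, adjusted p = 0.0152), or 0.77 (adjusted p = 0.302) without 4C replicate 1 and 0.98 (adjusted p = 0.262) without 30C replicate 2. With the open gene limit it was 0.67 (adjusted p = 0.574) and with thinned cells 1.17 (adjusted p = 0.0622).

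Bcl3 rose in B cells, at 18.3, 20.3, 28.4 and 30.5 CPM, by 0.52 ± 0.08 (SE, adjusted p = 0.00153), with both cold libraries above both at 30 °C. It rose in Foxp3+ αβ T cells, at 20.8, 22.1, 36.3 and 40.9 CPM, by 0.78 ± 0.11 (SE, adjusted p = 0.00285). Without 30C replicate 1 that value was 0.74 (adjusted p = 0.0502). Over all αβ T cells, at 16.2, 18.6, 24.99 and 31.4 CPM, the log2 fold change was 0.63 ± 0.12 (SE, adjusted p = 0.0297), or 0.53 (adjusted p = 0.251), 0.73 (adjusted p = 0.109) and 0.47 (adjusted p = 0.0911) without 30C replicate 1, 30C replicate 2 and 4C replicate 2. It was 0.64 (adjusted p = 0.0829) with no filter on low counts and 0.54 (adjusted p = 0.0627) under stricter gates. In macrophages, at 20.2, 26.1, 32.8 and 46.7 CPM, the cold libraries were also the higher ones, but the log2 fold change of 0.66 ± 0.23 (SE, adjusted p = 0.0852) did not pass the threshold.

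Among the subunits, Nfkb2 and Rel moved with cell type. Macrophages held 17.2, 12.7, 28.2 and 42.8 CPM of Nfkb2 and B cells 17.4, 18.9, 28.9 and 32.7. Neither group overlapped, and the log2 fold changes were 1.12 ± 0.28 (SE, adjusted p = 0.0188) and 0.67 ± 0.09 (SE, adjusted p = 0.000391). At 52 UMIs in both 30 °C libraries together, the macrophage value rests on few molecules, and it was 0.70 (adjusted p = 0.256) with thinned cells, 1.18 (adjusted p = 0.0686) with DESeq2 and 0.91 (adjusted p = 0.0599) under stricter gates. Rel rose in B cells, at 141, 142, 193 and 195 CPM, by 0.36 ± 0.05 (SE, adjusted p = 0.000397). It also rose in Foxp3+ αβ T cells, at 61.1, 67.9, 83.6 and 104 CPM, by 0.47 ± 0.10 (SE, adjusted p = 0.0277), or 0.40 (adjusted p = 0.264) without 30C replicate 1 and 0.54 (adjusted p = 0.0804) without 30C replicate 2. With the open gene limit this was 0.29 (adjusted p = 0.217), under stricter gates 0.32 (adjusted p = 0.208), with thinned cells 0.39 (adjusted p = 0.102) and without cycling cells 0.33 (adjusted p = 0.0776). In macrophages the levels of Rel were 55.8, 53.2, 59.1 and 58.97 CPM, with 0.07 ± 0.14 (SE, adjusted p = 0.783), and in dendritic cells, its main site, 377, 356, 384 and 337 CPM, which overlapped.

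Nfkb1 passed the edgeR threshold in ILC2 and in no other type tested. The T cell gates also had log2 fold changes below 0, short of the threshold. They were -0.20 ± 0.08 (SE, adjusted p = 0.198) in Foxp3+ and -0.23 ± 0.09 (SE, adjusted p = 0.191) in Foxp3- αβ T cells. In γδ T cells the value was -0.29 ± 0.14 (SE, adjusted p = 0.299). The ILC2 libraries held 417, 383, 259 and 267 CPM. Both cold libraries lay well below both at 30 °C, and the log2 fold change of -0.67 ± 0.10 (SE, adjusted p = 0.000179) passed the threshold in every alternative that gave a value. The difference from αβ T cells was -0.44 ± 0.10 (SE, adjusted p = 0.00888). Leaving out 30C replicate 2, 4C replicate 1 or 4C replicate 2 gave -0.38 (adjusted p = 0.087), -0.48 (adjusted p = 0.087) and -0.40 (adjusted p = 0.181) for this difference. αβ T cells held 169, 149, 136 and 151 CPM, and macrophages 121, 93.1, 128 and 129, a difference in response of 0.47 ± 0.14 (SE, adjusted p = 0.035) that fell short of the threshold without any 1 of 3 libraries (30C replicates 1 and 2 and 4C replicate 1). These values were 0.55 (adjusted p = 0.125), 0.39 (adjusted p = 0.262) and 0.39 (adjusted p = 0.236), and it was 0.43 (adjusted p = 0.0598) with library totals and 0.42 (adjusted p = 0.125) under stricter gates.

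Levels summed over cells do not show how many cells carried the mRNA, so the share of cells with at least 1 UMI was counted after the same thinning. For Tnf the shares were 38.6%, 36.6%, 55.6% and 52.6% in ILC2, 18.01%, 23.9%, 57.5% and 36.7% in γδ T cells and 10.4%, 10.9%, 17.4% and 15.4% in αβ T cells. Cold libraries were higher in each. B cells had 1.43%, 2.08%, 3.24% and 2.70% and macrophages 9.21%, 5.95%, 15.5% and 10.9%. Stromal cells, which should lack Tnf, had 0%, 0%, 0% and 5.26% and lymphatic endothelial cells 2.38%, 0%, 0% and 0%, in 11 to 42 cells per library. Unthinned, the shares were 55.1%, 57.7%, 82.6% and 74.5% in ILC2, at a median of 7612, 7949, 8562 and 8445 UMIs per cell, and 0%, 0%, 0% and 3.70% in stromal cells, at the depths given above.

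For Nfkbiz the thinned shares were 39.5%, 45.8%, 60.3% and 55.1% in macrophages and 3.28%, 2.27%, 18.5% and 14.9% in dendritic cells. For Nfkbid in B cells they were 17.4%, 19.04%, 31.5% and 28.1%, and for Nfkb1 in ILC2 63.9%, 69.01%, 51.4% and 50.5%. In all 4 of these the temperatures did not overlap. A two-sided exact permutation test over the libraries gave p = 0.333 for each, the smallest that 2 libraries against 2 allow. In γδ T cells 4C replicate 2 had 30 cells, and its share for Nfkbid, 19.9%, 15.3%, 43.7% and 16.7% over the 4 libraries, fell within those of the 30 °C libraries while its CPM lay above them, so no order is read from it.

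**Figure D4:**
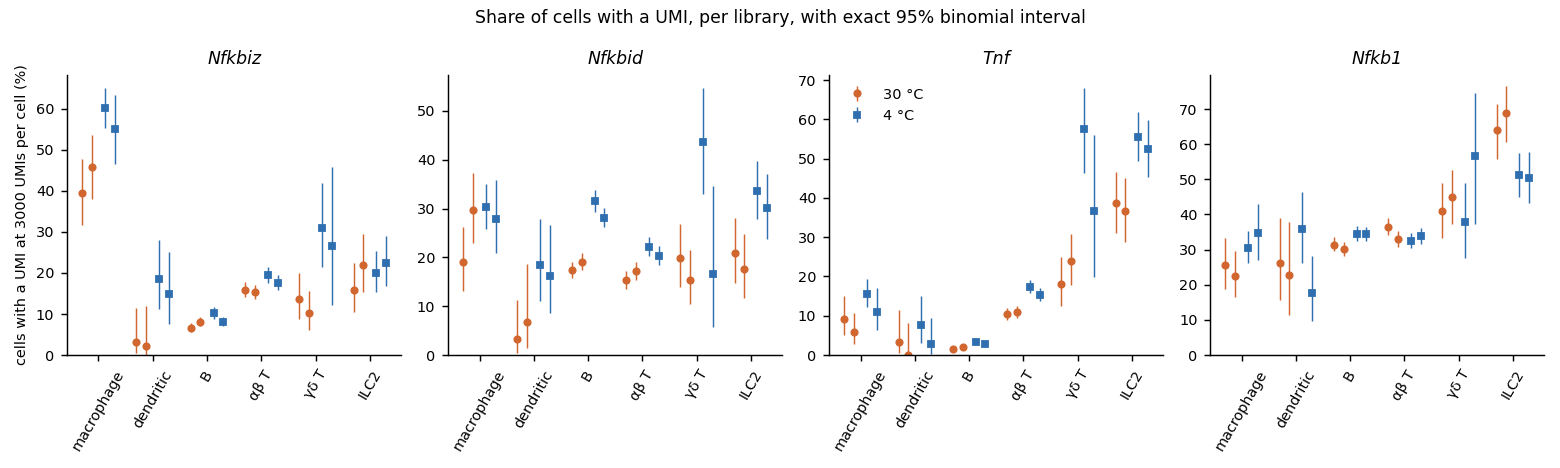
Share of cells with a UMI of Nfkbiz, Nfkbid, Tnf or Nfkb1 after each cell was thinned to 3000 UMIs (y axis, percent) by cell type (x axis). Each point is 1 library, circles at 30 °C and squares at 4 °C, with an exact 95% binomial interval that covers counting error only; in ILC2 the Tnf shares rise from 36.6% to 38.6% at 30 °C to 52.6% to 55.6% at 4 °C and the Nfkb1 shares fall.

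The rest of the pathway was described from 109 listed genes in 6 groups: other subunits, kinases and adaptors, brakes, receptors, ligands and targets. Over all of them, 16 rose and 13 fell of 91 tested (median log2 fold change 0.23) in macrophages, 21 rose and 6 fell of 91 tested (median log2 fold change 0.12) in B cells and 15 rose and 3 fell of 97 tested (median log2 fold change 0.13) in αβ T cells. The rising share was 17.6% in macrophages, 23.1% in B cells and 15.5% in αβ T cells, against 8.66%, 7.35% and 1.99% of all genes. The falling share was 14.3%, 6.59% and 3.09%, against 8.09%, 7.58% and 2.61%. The counts of each group that follow are read against the same shares of all genes. The lists too were chosen with earlier results of these data known, and the part of that choice was not tested.

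In macrophages, 8 rose and 4 fell of 20 tested (median log2 fold change 0.49) among the target genes. The chemokine genes Cxcl10 (1.87 ± 0.46, log2 fold change ± SE) and Ccl2 (1.59 ± 0.18) and the adhesion gene Icam1 (1.61 ± 0.29) rose. Another adhesion gene, Vcam1 (-2.74 ± 0.16), the urokinase receptor gene Plaur (-1.44 ± 0.24) and the neutrophil chemokine gene Cxcl1 (-0.81 ± 0.19) fell. Cxcl10 in the 30 °C macrophages came mostly from replicate 1, with 151 UMIs against 21 in replicate 2. Of the receptors, 6 rose and 3 fell of 19 tested (median log2 fold change 0.34). The bacterial sensor gene Nod1 (1.39 ± 0.38) and Tnfrsf13c (1.79 ± 0.51), the gene of a B cell survival receptor with 7 UMIs at 30 °C, rose, and the lipopolysaccharide co-receptor gene Cd14 (-1.33 ± 0.09) and the RNA sensor gene Tlr7 (-1.21 ± 0.15) fell. The 6 markers of B cells summed to 54.7, 64.3, 54.8 and 80.4 CPM in the macrophage gate and the 6 markers of T cells to 49.3, 37.1, 49.9 and 47.3, overlapping between temperatures, with no marker of either list at 0. Of the brakes, 0 rose and 3 fell of 11 tested (median log2 fold change 0.10), and of kinases and adaptors, 1 rose and 3 fell of 34 tested (median log2 fold change 0.16). Of the ligands, 0 rose and 0 fell of 4 tested (median log2 fold change 0.30), and of the other subunits, 1 rose and 0 fell of 3 tested (median log2 fold change 0.24), the riser being Relb, the transcriptionally active partner of the non-canonical subunit (0.90 ± 0.19), which was named after its values had been seen. Of the genes named here, Ccl2, Vcam1, Plaur, Cd14 and Tlr7 passed the threshold in every alternative. With DESeq2, Cxcl10 (1.85 (adjusted p = 0.549)), Icam1 (1.67 (adjusted p = 0.0942)), Nod1 (1.44 (adjusted p = 0.0975)), Tnfrsf13c (1.82 (adjusted p = 0.366)), Cxcl1 (-0.84 (adjusted p = 0.0609)) and Relb (0.90 (adjusted p = 0.144)) missed it. Without 30C replicate 1, Nod1 was 0.80 (adjusted p = 0.111), and without 30C replicate 2, Cxcl1 was -0.54 (adjusted p = 0.0694). Cxcl1 was -0.48 (adjusted p = 0.193) in macrophages with at most 1 B cell and 1 T cell marker, and Cxcl10 1.27 (adjusted p = 0.107) without cycling cells. Tnfrsf13c missed the threshold whichever library was left out, with adjusted p-values of 0.279 and 0.0637 without 30C replicates 1 and 2 and 0.294 and 0.151 without 4C replicates 1 and 2.

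In B cells, 8 rose and 0 fell of 17 tested (median log2 fold change 0.37) among the targets. They included the chemokine genes Ccl4 (2.71 ± 0.40) and Cxcl10 (1.25 ± 0.34), the survival gene Bcl2l1 (0.83 ± 0.24) and the activation marker gene Cd83 (0.49 ± 0.06). Ccl4 and Cxcl10 were near absent at 30 °C, with 30 and 26 UMIs in both libraries together. Of the ligands, 2 rose and 0 fell of 5 tested (median log2 fold change 0.40), among them Lta, the gene of lymphotoxin (0.52 ± 0.08). Receptors and adaptors changed less evenly: 1 rose and 2 fell of 20 tested (median log2 fold change 0.08) for receptors and 6 rose and 1 fell of 35 tested (median log2 fold change 0.09) for kinases and adaptors, with the interleukin 18 receptor gene Il18r1 (-1.10 ± 0.25), Tlr7 (-0.40 ± 0.09) and the ubiquitin ligase gene Birc3 (-0.55 ± 0.06) lower. For the brakes, 3 rose and 3 fell of 11 tested (median log2 fold change -0.03), with N4bp1 (-0.81 ± 0.06) and the linear deubiquitinase gene Otulin (-0.27 ± 0.05) lower, and for the other subunits, 1 rose and 0 fell of 3 tested (median log2 fold change 0.07). Ccl4, Cd83, Lta, Birc3 and N4bp1 passed the threshold in every alternative, and the other named genes did not. Cxcl10 missed it whichever library was left out, with adjusted p-values of 0.144 and 0.0991 without 30C replicates 1 and 2 and 0.116 and 0.0938 without 4C replicates 1 and 2. Bcl2l1 was 0.65 (adjusted p = 0.171) without 30C replicate 2 and 0.71 (adjusted p = 0.185) without 4C replicate 2. Tlr7 was -0.36 (adjusted p = 0.075) without 30C replicate 1 and -0.31 (adjusted p = 0.0675) without 4C replicate 2, Otulin was -0.23 (adjusted p = 0.081) without 30C replicate 2, and Il18r1 was -0.42 (adjusted p = 0.483) with thinned cells.

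In αβ T cells, 5 rose and 0 fell of 7 tested (median log2 fold change 0.57) among the ligands. Lta (0.86 ± 0.10) and Tnfsf11, the gene of RANKL (0.71 ± 0.08), were among them. Of the targets, 6 rose and 0 fell of 19 tested (median log2 fold change 0.39), the largest being the chemokine genes Ccl3 (2.45 ± 0.34) and Ccl4 (1.53 ± 0.16), followed by the stress gene Gadd45b (0.69 ± 0.07). Of the receptors, 1 rose and 2 fell of 21 tested (median log2 fold change 0.00), with Il1rl1, the gene of the interleukin 33 receptor (-0.57 ± 0.10), and Il18r1 (-0.48 ± 0.06) lower. Of the kinases and adaptors, 2 rose and 0 fell of 36 tested (median log2 fold change 0.11). Of the brakes, 0 rose and 1 fell of 11 tested (median log2 fold change 0.01), the faller being N4bp1 (-0.55 ± 0.07), and of the other subunits, 1 rose and 0 fell of 3 tested (median log2 fold change 0.28). Of these named genes Ccl4 alone passed the threshold in every alternative. Without 30C replicate 1 the values were 2.16 (adjusted p = 0.109) for Ccl3, 0.68 (adjusted p = 0.0641) for Gadd45b, 0.71 (adjusted p = 0.0654) for Tnfsf11, -0.44 (adjusted p = 0.161) for Il1rl1, -0.44 (adjusted p = 0.127) for Il18r1 and -0.50 (adjusted p = 0.101) for N4bp1. Without 30C replicate 2 they were 0.81 (adjusted p = 0.0555) for Lta, 2.81 (adjusted p = 0.056) for Ccl3, 0.72 (adjusted p = 0.0567) for Tnfsf11 and -0.51 (adjusted p = 0.0633) for Il18r1, and without 4C replicate 1 Il1rl1 was -0.55 (adjusted p = 0.0632).

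Other gene lists were counted in the same libraries. Of 9 glucocorticoid-responsive genes, 0 rose and 9 fell of 9 tested (median log2 fold change -2.95) in macrophages, 0 rose and 6 fell of 8 tested (median log2 fold change -1.54) in B cells and 0 rose and 6 fell of 9 tested (median log2 fold change -1.55) in αβ T cells. Their summed level in macrophages was 6219, 6017, 936 and 949 CPM, with the first listed genes, Tsc22d3 (-2.56 ± 0.09) and Fkbp5 (-4.74 ± 0.18), both lower. Of 15 immediate early and stress genes that tissue digestion can induce, 2 rose and 1 fell of 15 tested (median log2 fold change 0.24) in macrophages, 1 rose and 1 fell of 15 tested (median log2 fold change 0.07) in B cells and 2 rose and 0 fell of 15 tested (median log2 fold change 0.13) in αβ T cells, and in γδ T cells 3 rose and 0 fell of 14 tested (median log2 fold change 0.59). Their summed level in γδ T cells was 3270.2, 3227, 5540.1 and 4574 CPM and in macrophages 13287, 16714, 16847 and 15899. Of all genes, 8.66%, 7.35% and 1.99% rose and 8.09%, 7.58% and 2.61% fell in macrophages, B cells and αβ T cells. In γδ T cells 1.51% rose. The immediate early and stress genes rose at shares of 13.3%, 6.67%, 13.3% and 21.4% in these types, in that order. They fell at shares of 6.67%, 6.67%, 0% and 0%. Both of their B cell shares lay below those of all genes. The part of either list in the changes of the 10 genes was not tested.

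Libraries also differed in their other cells. Neutrophil markers summed to 0.0979, 0.106, 59.9 and 0.23 CPM in the B cell gate, with 478 S100a8 and 528 S100a9 UMIs in 4C replicate 1. Without that library the B cell values were -0.44 (adjusted p = 4.85e-06) for Nfkbia, 0.47 (adjusted p = 2.28e-06) for Nfkbid and 0.58 (adjusted p = 0.0347) for Tnf. Among the γδ T cells, proliferation markers summed to 1496, 1345, 479 and 1109 CPM. Without cycling cells Tnf in γδ T cells was 1.10 (adjusted p = 0.00392) and Nfkbiz 0.94 (adjusted p = 0.0179).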

How the data were processed

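The deposited files hold raw UMI counts per gene and cell. Per the labels and the study's methods, the authors aligned reads with STAR to mm10/GRCm38 and counted with Cell Ranger (3.0.0 in the file headers, 3.1.0 in the submitters' processing notes); the notes also name Seurat 4.2.0. As in the study's methods, barcodes under 100 genes and genes found in under 10 cells were dropped first, and kept cells had gene numbers above 200 and below 5000 and a mitochondrial share below 7.5%. Scrublet marked 504 cells, which were kept. Gate thresholds were set after marker distributions had been seen. The UMIs of each cell type were added up within a library, and edgeR 4.0.16 (R 4.3.3; TMM, filterByExpr, quasi-likelihood test, Benjamini-Hochberg over all genes, threshold 0.05) was fitted per cell type, or per pair of types with library as a term. DESeq2 1.42.0 was an alternative. The scripts were tested on simulated data. The 10 genes and the gene lists were chosen with earlier results of these data known; a named list gene passed the threshold and changed alike in all 4 library comparisons, at most the 5 largest rises and falls. Cells that passed 1 lineage gate alone were called B cells with 4 of 6 markers (such as Cd79a), and of these germinal centre B cells with 2 of 4 more (such as Rgs13). T cells had 4 of 6 markers (such as Cd3e), and of these γδ T cells had 3 of 5 more (such as Trdc) and αβ T cells at most 1. Plasma cells had 3 of 5 markers (such as Jchain), stromal cells 3 of 5 (such as Dcn) and lymphatic endothelial cells 3 of 4 (such as Prox1), and ILC2, in no lineage gate, 2 of 6 (such as Il17rb). Intervals cover counting error only, and libraries of a group are separate pools of mice per the methods.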

Additional observations from a re-analysis of the deposited data

Results flagged for a closer look

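The 12 results below are those in which the cold effect of a member differed between a pair of cell types by the direct edgeR test, over 7 pairs and 10 genes; their values are differences between log2 fold changes. No cause was tested for any of them.

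Nfkbia gave 4 of the 12. Its cold effect in macrophages minus that in αβ T cells was -0.57 (adjusted p = 0.00228), in B cells minus αβ T cells -0.53 (adjusted p = 0.00107), in Foxp3+ minus Foxp3- αβ T cells 0.44 (adjusted p = 0.000845) and in dendritic cells minus macrophages 0.79 (adjusted p = 0.0136). The value for B against αβ T cells passed the threshold in every alternative that was run, and the others did not: macrophages against αβ T cells fell short without 30C replicate 2 (-0.46 (adjusted p = 0.119)) and without 4C replicate 1 (-0.37 (adjusted p = 0.102)), dendritic cells against macrophages without the same libraries (0.60 (adjusted p = 0.138) and 0.57 (adjusted p = 0.067)) and under stricter gates (0.67 (adjusted p = 0.13)), and Foxp3+ against Foxp3- cells under stricter gates (0.27 (adjusted p = 0.19)).

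Nfkbiz gave 3: macrophages minus B cells 0.67 (adjusted p = 0.00131), γδ minus αβ T cells 1.20 (adjusted p = 0.0108) and dendritic cells minus macrophages 1.36 (adjusted p = 0.0198). The value for macrophages against B cells passed the threshold in every alternative that was run. Without 4C replicate 1 the others were 0.60 (adjusted p = 0.641) and 1.06 (adjusted p = 0.123), and without 30C replicate 2 1.08 (adjusted p = 0.0838) and 1.15 (adjusted p = 0.119).

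Nfkb1 gave 2, macrophages minus αβ T cells 0.47 (adjusted p = 0.035) and ILC2 minus αβ T cells -0.44 (adjusted p = 0.00888). Without 30C replicate 2 these were 0.39 (adjusted p = 0.262) and -0.38 (adjusted p = 0.087), and without 4C replicate 1 0.39 (adjusted p = 0.236) and -0.48 (adjusted p = 0.087). The first also fell short without 30C replicate 1 (0.55 (adjusted p = 0.125)) and the second without 4C replicate 2 (-0.40 (adjusted p = 0.181)). Tnfaip3 gave 2, γδ minus αβ T cells 0.91 (adjusted p = 0.0303) and dendritic cells minus macrophages 1.15 (adjusted p = 0.00521). Without 30C replicate 2 they were 0.76 (adjusted p = 0.286) and 0.79 (adjusted p = 0.0886), and the γδ value was 0.61 (adjusted p = 0.402) without 4C replicate 1. Nfkbid gave 1, Foxp3+ minus Foxp3- αβ T cells 0.58 (adjusted p = 0.00477), which was 0.60 (adjusted p = 0.0705) without 30C replicate 1 and 0.56 (adjusted p = 0.131) without 30C replicate 2.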

How the results depend on the processing

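With 2 libraries per temperature, leaving 1 out leaves a lone library that is assumed to vary like the others. Of the 36 cold effects called for members, 13 passed the threshold in the same direction in every alternative run, 6 of them in B cells (all but Tnf), 2 in Foxp3+ αβ T cells (Nfkbid and Tnf), 2 in ILC2 (Nfkb1 and Tnf) and 1 each in macrophages and dendritic cells (Nfkbiz in both) and in Foxp3- αβ T cells (Tnf). None of the 4 in γδ T cells and none of the 4 in αβ T cells did so. Of the 12 differences in response 2 did so, and of the 53 differences in level 41. The Foxp3+ and Foxp3- gates divide the same αβ T cells that are also tested whole, so the 36 are not all separate results. Values that missed the threshold changed sign 109 times, in 54 results. The part of low UMI sums and cell numbers in lost calls was not tested. For what follows the cause was not tested.

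With DESeq2 in place of edgeR, members called for the cold effect went from 5 to 2 (macrophages), 2 to 1 (Foxp3- αβ T cells) and 4 to 2 (ILC2), and all genes from 1563 to 748 (macrophages), 139 to 82 (dendritic cells), 1736 to 877 (B cells), 577 to 302 (Foxp3+ αβ T cells), 332 to 173 (Foxp3- αβ T cells), 338 to 165 (γδ T cells), 501 to 139 (ILC2) and 16 to 25 (stromal cells). With no filter on low counts, members went from 3 to 7 (dendritic cells), 0 to 1 (plasma cells) and 4 to 2 (αβ T cells), and all genes from 139 to 310 (dendritic cells), 49 to 286 (germinal centre B cells), 65 to 418 (plasma cells), 548 to 173 (αβ T cells), 577 to 1169 (Foxp3+ αβ T cells), 332 to 872 (Foxp3- αβ T cells), 338 to 757 (γδ T cells) and 16 to 144 (stromal cells).

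With library totals in place of TMM, members went from 4 to 7 (αβ T cells) and 2 to 1 (Foxp3- αβ T cells), and the differences in response from 2 to 1 (macrophages against αβ T cells). That scaling moved the median level difference of all genes by 0.51 (macrophages minus B cells), -0.42 (B minus αβ T cells), -0.46 (dendritic cells minus macrophages) and -0.11 (ILC2 minus αβ T cells), and turned 3 levels: Bcl3 and Nfkbid in macrophages minus B cells from -0.17 and -0.19 to 0.34 and 0.32, and Nfkb1 in B minus αβ T cells from 0.29 to -0.13. The share of called genes that were higher in the cold went from 49.3% to 78.0% (B cells), 14.3% to 50% (germinal centre B cells), 43.2% to 65.0% (αβ T cells), 44.9% to 67.1% (Foxp3+ cells), 32.5% to 48.8% (Foxp3- cells), 37.3% to 50.3% (γδ T cells) and 41.1% to 55.5% (ILC2).

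With stricter gates, members went from 5 to 3 (macrophages), 4 to 2 (αβ T cells) and 2 to 1 (Foxp3- αβ T cells), and all genes from 49 to 157 (germinal centre B cells), 548 to 351 (αβ T cells), 577 to 356 (Foxp3+ cells) and 332 to 214 (Foxp3- cells). The differences in response went from 2 to 1 members (macrophages against αβ T cells), 2 to 0 members and 90 to 18 genes (Foxp3+ against Foxp3- cells) and 3 to 1 members and 255 to 99 genes (dendritic cells against macrophages). These gates gave no value for plasma cells, γδ T cells, ILC2 and stromal cells. With the upper limit on genes lifted, γδ T cells went from 4 to 0 members and 338 to 0 genes, and all genes went from 49 to 32 (germinal centre B cells), 548 to 1104 (αβ T cells), 332 to 649 (Foxp3- cells), 501 to 307 (ILC2) and 16 to 6 (stromal cells). With a mitochondrial limit of 15%, genes went from 49 to 78 (germinal centre B cells), 16 to 10 (stromal cells) and, for the difference of ILC2 from αβ T cells, 287 to 188. With cells thinned to 3000 UMIs, members went from 5 to 3 (macrophages), 3 to 1 (dendritic cells) and 4 to 2 (γδ T cells), and genes from 1563 to 971, 139 to 22 and 338 to 110 in these types, 1736 to 1111 (B cells), 65 to 18 (plasma cells) and 501 to 262 (ILC2). Without Scrublet doublets Foxp3- cells went from 2 to 1 members. Without cycling cells, added after seeing the data like the comparisons of Foxp3+ with Foxp3- cells, ILC2 or γδ with αβ T cells and dendritic cells with macrophages, genes went from 49 to 99 (germinal centre B cells) and 338 to 163 (γδ T cells).

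The replicate numbers are not said to mark a shared day, and same-numbered libraries deviated together with correlations of -0.12 (γδ T cells) to 0.31 (B cells). With the replicate number as a block, members called went from 4 to 9 in αβ T cells, and all genes from 139 to 85 (dendritic cells), 49 to 245 (germinal centre B cells), 548 to 1758 (αβ T cells), 577 to 1342 (Foxp3+ cells), 332 to 599 (Foxp3- cells) and 16 to 130 (stromal cells). With the pairing crossed in γδ T cells, genes went from 338 to 678.

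Leaving out each library in turn gave 3 to 5 members (dendritic cells), 0 to 3 (germinal centre B cells), 0 to 4 (αβ T cells), 2 to 7 (Foxp3+ cells), 1 to 3 (Foxp3- cells) and 0 to 5 (γδ T cells), and 137 to 255 genes (dendritic cells), 986 to 1899 (B cells), 0 to 434 (germinal centre B cells), 33 to 232 (plasma cells), 70 to 564 (αβ T cells), 122 to 1122 (Foxp3+ cells), 10 to 412 (γδ T cells) and 60 to 141 (stromal cells). For differences in response it gave 0 to 2 members and 416 to 911 genes (macrophages against αβ T cells), 1 to 2 and 127 to 794 (B against αβ T cells), 1 to 2 and 22 to 129 (Foxp3+ against Foxp3- cells), 0 to 1 and 144 to 427 (ILC2 against αβ T cells), 0 to 5 and 64 to 538 (γδ against αβ T cells), and 0 to 4 members (dendritic cells against macrophages). For the level of γδ against αβ T cells it gave 1924 to 3643 genes.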
